A study of Mus musculus with 20 samples.

Results

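The genes described here are 32 type I interferon-stimulated genes, a set of sensors, signalling factors and effectors that cells switch on when interferon reaches them. They were taken by symbol from the 32400 Ensembl genes of the deposited count table. The Ensembl identifiers were first matched to GENCODE M21 names on the mouse build GRCm38. The list was chosen with earlier results of these data known, so its counts are not those of a set chosen blind to the data. All 32 members were found in the table, and all 32 passed the filter on low counts that left 13667 genes for testing. By role they comprise 4 sensors of RNA and other nucleic acid and 3 transcription factors. A group of 6 holds enzymes activated by double-stranded RNA and their OAS-like relatives. The others are the modifier Isg15 with its protease Usp18, 4 IFIT proteins, 5 antiviral GTPases, enzymes and tetherin, and 8 further proteins.

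Liver mRNA was sequenced from mice of the strain C57BL/6NTac in 3 groups. The chow control group (n = 5) ate normal chow and was untreated. The HFHF control group (n = 7) ate a diet high in fat and fructose and received vehicle, phosphate-buffered saline. The HFHF Flcn gRNA group (n = 8) ate the same diet and received adeno-associated virus of serotype AAV8 that carried a guide RNA against Flcn, the gene of the lysosomal signalling protein folliculin. The vehicle group received no virus, so an effect of the virus and an effect of the guide cannot be told apart, and the chow group received no vehicle, so diet and vehicle cannot be told apart either. Where the nuclease that a guide RNA needs came from, and the age and sex of the mice, were not given in the sources used here. No label says that the libraries of a group are different animals, and p-values therefore measure the spread between these libraries, which may be technical.

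Type I interferons are secreted when a cell detects foreign or misplaced nucleic acid. They bind a shared receptor on the same or neighbouring cells, whose kinases activate STAT2, and this joins IRF9 in a complex that binds interferon-stimulated response elements in the promoters of the genes described here. In liver, hepatocytes, resident macrophages and recruited immune cells can all respond, and several of the induced genes encode components of the pathway itself, so the response can amplify or restrain itself.

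The response elements were looked up in the promoters because they are the sequence through which the complex that holds STAT2 and IRF9 is known to act. RefSeq promoter windows of build GRCm38.p6, which run from 250 bases before to 50 bases after an annotated start, were matched by symbol for 22 of the 32 members. Windows were not matched for Rtp4, Oas2, Dhx58, Zbp1, Usp18, Mx2, Parp14, Mx1, Ifi27l2a and Ifi27. The motif searched was the pair of half-sites GAAANNGAAA, on both strands, with overlapping matches counted. It was present for 13 of the 22 matched members (59.1%), beside 3.99% of the 27025 genes and 3.44% of the 32851 windows of the same length in the table. A match describes these letters only and is no measurement of binding.

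The promoters of Isg15 and Ifit1 are printed whole because they show both arrangements of the element, and the motif is in capitals in each. The Isg15 window lies at chr4:156200769-156201068 on the minus strand and holds 3 overlapping copies in the direction of the gene, in the stretch just before the start. The Ifit1 window lies at chr19:34640639-34640938 on the plus strand and holds 2 separate copies that read on the other strand, so the capitals show the reverse complement.
Isg15 promoter: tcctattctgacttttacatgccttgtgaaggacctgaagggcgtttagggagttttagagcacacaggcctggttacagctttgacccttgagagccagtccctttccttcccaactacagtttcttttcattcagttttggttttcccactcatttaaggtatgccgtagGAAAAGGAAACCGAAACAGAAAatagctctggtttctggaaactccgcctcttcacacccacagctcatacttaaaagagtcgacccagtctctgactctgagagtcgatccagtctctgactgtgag
Ifit1 promoter: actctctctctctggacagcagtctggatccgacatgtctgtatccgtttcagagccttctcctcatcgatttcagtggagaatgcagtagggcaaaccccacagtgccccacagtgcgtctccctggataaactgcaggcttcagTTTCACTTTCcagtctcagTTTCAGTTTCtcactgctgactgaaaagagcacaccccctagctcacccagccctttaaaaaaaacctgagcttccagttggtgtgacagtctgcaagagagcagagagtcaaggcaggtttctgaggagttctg

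The other 11 members with a match are shown by the stretch around the copy nearest to the start, or nearest before it where a gene has copies on either side, written on the strand that carries GAAANNGAAA and with the motif in capitals. They allow the half-sites and the bases between them to be compared from gene to gene.
Ifih1 (chr2:62646206-62646233, minus strand): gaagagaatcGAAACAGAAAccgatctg
Ddx58 (chr4:40239804-40239833, plus strand): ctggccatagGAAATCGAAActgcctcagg
Eif2ak2 (chr17:78882535-78882564, minus strand): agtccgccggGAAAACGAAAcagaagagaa
Oas1a (chr5:120907520-120907549, minus strand): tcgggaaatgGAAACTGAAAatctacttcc
Oas3 (chr5:120777715-120777744, minus strand): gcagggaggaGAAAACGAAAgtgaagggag
Stat2 (chr10:128270266-128270295, minus strand): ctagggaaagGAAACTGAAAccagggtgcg
Ifit3 (chr19:34583397-34583426, minus strand): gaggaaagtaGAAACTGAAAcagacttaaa
Ifit3b (chr19:34607793-34607822, minus strand): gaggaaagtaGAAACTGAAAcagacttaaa
Rsad2 (chr12:26456553-26456582, plus strand): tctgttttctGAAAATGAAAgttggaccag
Bst2 (chr8:71537577-71537606, minus strand): ccaggaaaatGAAACTGAAAggctgcagtt
Trim30a (chr7:104465210-104465239, plus strand): caggaactgaGAAAAAGAAActaaagaact

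Of 21 copies in the members' windows, 17 lay wholly before the start. The copy in Oas1a ended 5 bases before the start, and that in Stat2 lay farthest away, 213 bases before it. The copies of Ifih1, Ddx58 and Eif2ak2 lay after the start, as did 1 of the copies of Trim30a, which has 2 annotated starts. Ifit3 and Ifit3b, adjacent duplicates, had the same letters in the printed stretch. The 13 genes with a match and the 9 without had medians of fold change close to each other, given here without a test. Only this exact spacing of the half-sites was searched, so the 9 are not shown to lack other forms of the element. In gRNA against HFHF control the median log2 fold change was -0.65 with a match (range -1.19 to 0.01) and -0.73 without (range -1.32 to -0.17). In HFHF control against chow control the medians were 0.80 and 0.80.

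**Figure D1:**
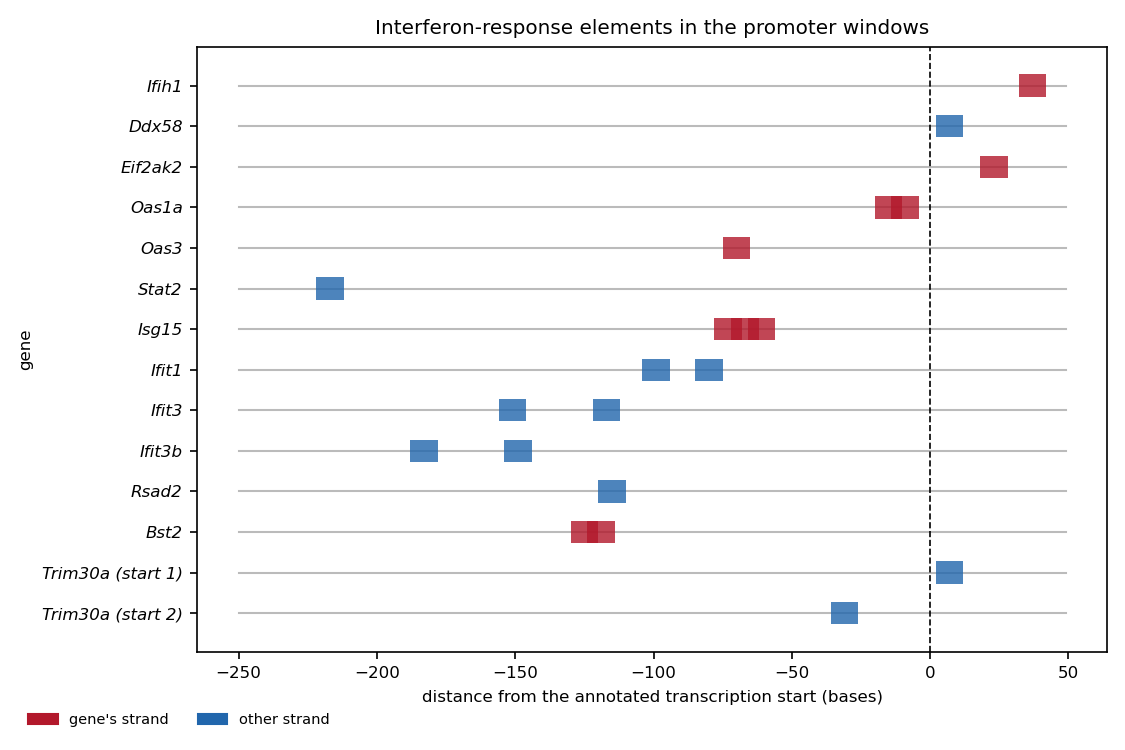
Copies of the response element along the promoter windows of the members that hold one. The horizontal axis is the distance from the annotated start in bases, each row is a gene or a separate start of Trim30a, and colour gives the strand of the copy relative to the gene. Most copies lie before the start, and those of Isg15, Oas1a and Bst2 overlap each other.

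The libraries summed to between 13974379 and 19586576 estimated counts, both limits being gRNA libraries. Levels below are in CPM, counts scaled by a library size that was adjusted for composition, and fold changes are log2 values with a standard error (SE) from edgeR's quasi-likelihood fit over all 13667 genes, called at an adjusted p under 0.05. A change on the diet means HFHF control against chow control, and a change with the gRNA means gRNA against HFHF control. Flcn itself had a mean of 22.2 ± 6.03 CPM (SD, n = 5) in chow, 20.7 ± 2.98 (n = 7) in HFHF control and 17.8 ± 2.40 (n = 8) in gRNA. The gRNA and HFHF control groups were not called different (-0.22 on the log2 scale, adjusted p = 0.14). HFHF control against chow gave -0.10 (adjusted p = 0.547), and gRNA against chow gave -0.32 with an adjusted p of 0.05, at the threshold. The amount of a transcript does not measure whether its gene was edited, so this does not check the labels. All 12 hepatocyte markers looked up, Alb among them, passed the filter. Replicate numbers were assigned here in the order of the sample records and do not come from the labels. The library gRNA replicate 8 carries another number in its title than all other libraries, and results that rest on it are given without it.

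Interferon-stimulated genes were higher on the HFHF diet than on chow and lower in the gRNA group than in the HFHF control group. In HFHF control against chow control 26 of 32 members rose, 2 fell and 4 were not called, where 28.1% of all genes tested rose and 28.9% fell. In gRNA against HFHF control 26 members fell, 1 rose and 5 were not called, where 19.0% of all genes fell and 19.6% rose. In gRNA against chow control 8 rose, 3 fell and 21 were not called, beside 20.9% and 21.7% of all genes. These shares of all genes belong beside every count of called genes below. Usp18 alone rose in gRNA against HFHF control, Stat2 and Mx2 fell on the HFHF diet against chow, and Oasl1, Stat2 and Mx2 fell in gRNA against chow.

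The median log2 fold change of the members was 0.80 in HFHF control against chow (all genes -0.01) and -0.65 in gRNA against HFHF control (all genes 0.01). In gRNA against chow it was 0.06 (all genes 0.003). All HFHF control libraries stood above all chow libraries for 16 members and below them for 1, beside 18.8% and 18.1% of all genes. All gRNA libraries stood below all HFHF control libraries for 11 members and above them for 0, beside 6.01% and 5.04% of all genes. All gRNA libraries stood above all chow libraries for 4 members and below them for 2, beside 9.01% and 8.98%. The contrasts share libraries, since HFHF control enters both the diet and the gRNA contrast, so a high HFHF control value raises one and lowers the other, and no overlap between them is given as a result. In bulk liver, fewer cells of a type and less RNA per cell cannot be told apart.

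The counts depend in part on how libraries are scaled. Without scaling for composition the median of all genes moved to -0.17 in the gRNA contrast and to 0.27 in the diet contrast, and relative to it the members' median was -0.65 and 0.81. Of all genes called, 50.7% were higher in the gRNA contrast, 37.8% with upper-quartile scaling and 16.6% with none, against 49.4%, 60.7% and 80.4% in the diet contrast. For gRNA against chow the shares were 49.1%, 55.6% and 66.6%.

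**Figure D2:**
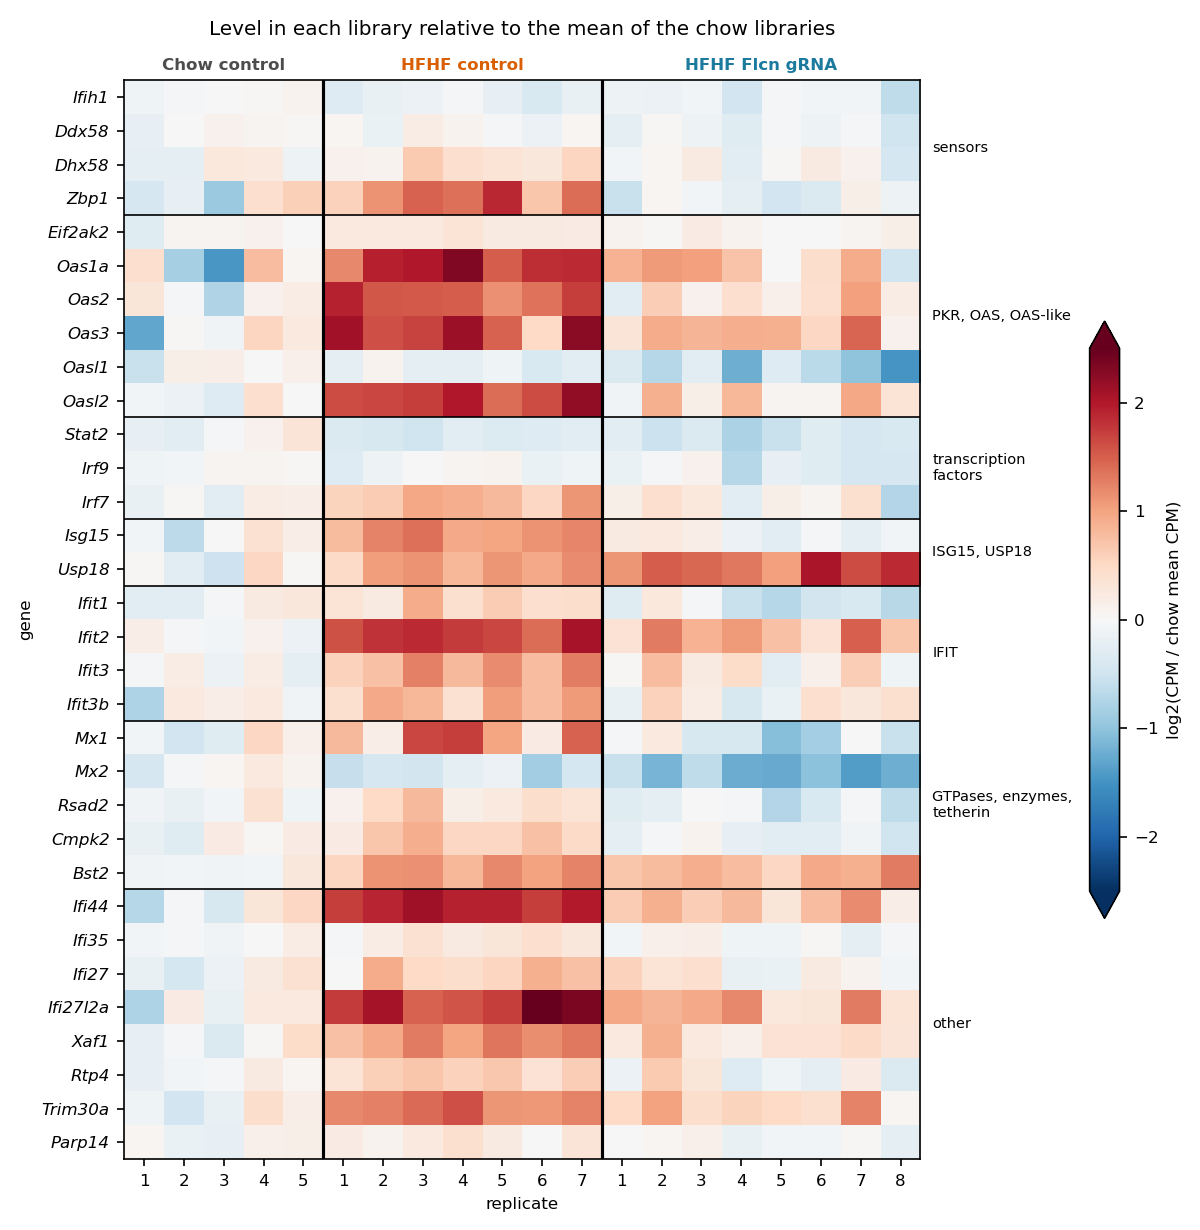
Level of each member in each of the 20 libraries, as the log2 ratio to the mean CPM of the chow libraries, with genes in rows grouped by role and libraries in columns grouped by group (chow n = 5, HFHF control n = 7, gRNA n = 8). The HFHF control columns are red for most genes, the gRNA columns paler, and Usp18 is reddest in the gRNA columns.

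**Figure D3:**
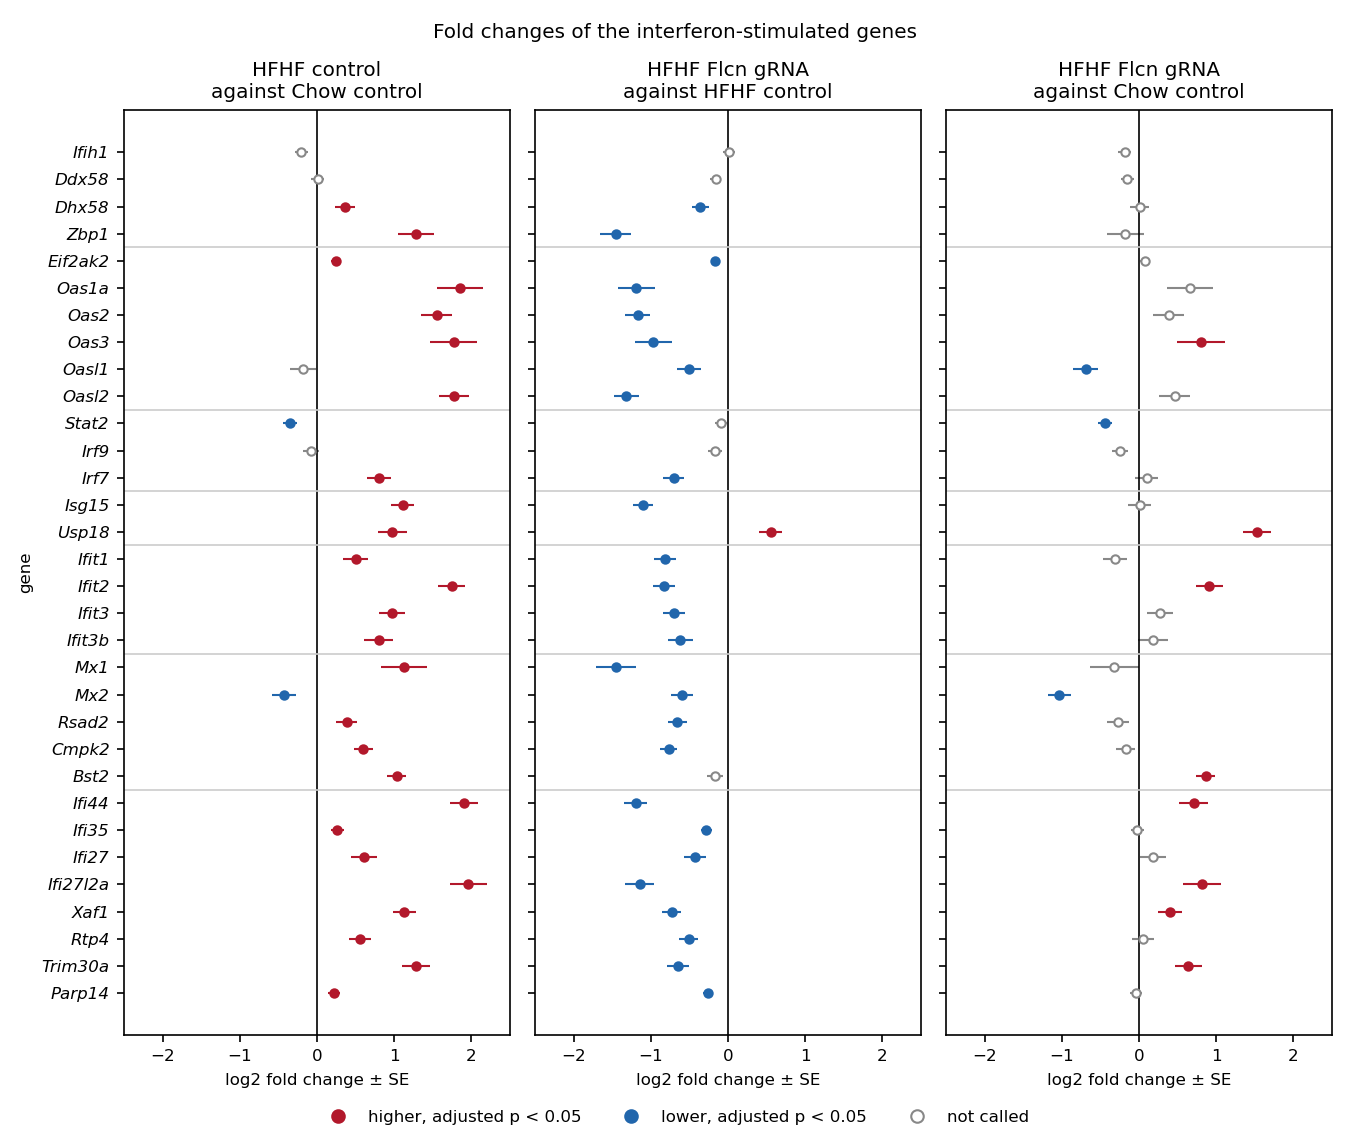
Log2 fold change of each member with its SE (bars) in the 3 contrasts, with filled points for calls at an adjusted p under 0.05. Points lie mostly to the right in HFHF control against chow (26 of 32 called higher) and mostly to the left in gRNA against HFHF control (26 of 32 called lower).

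Among the sensors, the nucleic acid sensor Zbp1 changed most and the RNA helicases Ifih1 and Ddx58 were not called in any contrast, although some alternative settings called them. Zbp1, which binds nucleic acid in the Z conformation and can start cell death, was at 2.57, 2.99, 1.82, 4.61 and 5.21 CPM in the 5 chow libraries, from 5.16 to 12.6 (median 8.97) in HFHF control and from 2.32 to 3.83 (median 3.03) in gRNA. Every gRNA library was below every HFHF control library, while chow replicate 5 overlapped the lowest HFHF control library. It rose on the diet (1.28 ± 0.23, adjusted p = 7.89e-05), fell with the gRNA (-1.46 ± 0.20, adjusted p = 7.15e-06) and was not called between gRNA and chow (-0.18 ± 0.24, adjusted p = 0.576).

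Dhx58 encodes LGP2, which tunes the other RNA helicases. Its levels were 5.96, 6.04, 8.40, 8.32 and 6.46 CPM in chow, 7.44 to 11.0 (median 8.94) in HFHF control and 5.20 to 8.27 (median 7.24) in gRNA. All 3 groups overlapped. The rise on the diet (0.36 ± 0.13, adjusted p = 0.0216) lost its call without HFHF control replicate 3 (0.31, adjusted p = 0.0505), the fall with the gRNA was -0.36 ± 0.11, adjusted p = 0.0151, and gRNA against chow gave 0.01 ± 0.13, adjusted p = 0.98.

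Ddx58 encodes RIG-I, the sensor of short RNA with a triphosphate end. It stood at 23.5, 26.9, 29.1, 28.5 and 27.7 CPM in chow, 24.0 to 30.9 (median 28.0) in HFHF control and 19.3 to 27.8 (median 24.9) in gRNA, with all groups overlapping. Its log2 fold changes were 0.01 ± 0.08, adjusted p = 0.945 for the diet, -0.16 ± 0.07, adjusted p = 0.0925 for the gRNA and -0.15 ± 0.08, adjusted p = 0.14 for gRNA against chow. Without gRNA replicate 2 the gRNA contrast was called (-0.20, adjusted p = 0.0429), as it was with upper-quartile scaling (-0.22, adjusted p = 0.0288) and without composition scaling (-0.34, adjusted p = 0.0024). Without composition scaling Ddx58 was also called higher on the diet (0.29, adjusted p = 0.015). Ifih1, which encodes MDA5 and detects long double-stranded RNA, had means of 35.6 ± 1.71 CPM (SD, n = 5), 30.9 ± 2.27 (n = 7) and 31.2 ± 4.38 (n = 8) in chow, HFHF control and gRNA. Its fold change with the gRNA was 0.01 ± 0.08, adjusted p = 0.907, the sign of which turned with upper-quartile or no composition scaling, and its diet value of -0.20 ± 0.09, adjusted p = 0.0513 lay close to the threshold and was called without HFHF control replicate 4 (adjusted p = 0.035), gRNA replicate 4 (0.0373) or gRNA replicate 8 (0.0429). It was also called lower on the diet in a fit of only those 2 groups (-0.19, adjusted p = 0.0117), and its diet value was 0.0741 without composition scaling.

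Of the 6 members that are enzymes activated by double-stranded RNA or their OAS-like relatives, 5 rose on the diet and 6 fell with the gRNA. Over all genes 28.1% rose on the diet and 19.0% fell with the gRNA. Oligoadenylate synthetases make a messenger that activates the ribonuclease RNase L, and the OAS-like proteins are their relatives. Oasl2 stood at 2.87, 2.72, 2.42, 4.01 and 3.03 CPM in chow, 7.93 to 14.1 (median 9.64) in HFHF control and 2.85 to 5.86 (median 3.57) in gRNA. HFHF control was apart from both other groups, which overlapped each other. The diet value was 1.78 ± 0.20, adjusted p = 1.26e-07, the gRNA value -1.32 ± 0.16, adjusted p = 1.42e-06, and gRNA against chow was not called (0.46 ± 0.20, adjusted p = 0.0651). That last contrast was called without gRNA replicate 1 (adjusted p = 0.0298), 3 (0.0438), 5 (0.0367) or 6 (0.0447) or chow replicate 4 (0.0296), and without composition scaling (0.0409).

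Oas2 had 2.21, 1.73, 1.06, 1.93 and 2.02 CPM in chow, 3.97 to 6.79 (median 5.18) in HFHF control and 1.50 to 3.64 (median 2.21) in gRNA. As for Oasl2, no HFHF control library overlapped another group. Oas2 rose on the diet (1.55 ± 0.20, adjusted p = 9.33e-07), fell with the gRNA (-1.17 ± 0.16, adjusted p = 7.39e-06) and was not called between gRNA and chow (0.38 ± 0.20, adjusted p = 0.134). Oas1a had 2.50, 1.06, 0.681, 3.19 and 1.95 CPM in chow, 4.32 to 9.33 (median 6.85) in HFHF control and 1.33 to 3.90 (median 3.27) in gRNA. The chow libraries of Oas1a spread widely, with replicates 2 and 3 low, yet none reached the HFHF control range. Its diet value was 1.85 ± 0.30, adjusted p = 2.21e-05 and its gRNA value -1.19 ± 0.24, adjusted p = 0.000456, while gRNA against chow gave 0.66 ± 0.30, adjusted p = 0.0849 and was called without chow replicate 4 (adjusted p = 0.0214), gRNA replicate 5 (0.0494) or gRNA replicate 8 (0.0305). Oas1a is an uncertain gene, because 57.0% of its 51-base stretches also occur in transcripts of other genes, Oas1g and Oas1b among them.

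The remaining 3 of this role differed from each other. Oas3 had few counts, with means of 0.720 ± 0.276 CPM (SD, n = 5) in chow, 2.47 ± 0.844 (n = 7) in HFHF control and 1.25 ± 0.370 (n = 8) in gRNA, where the lowest chow library held 4 counts. It rose on the diet (1.77 ± 0.31) and fell with the gRNA (-0.97 ± 0.24), and its rise in gRNA against chow (0.80 ± 0.32, adjusted p = 0.0444) lost the call when any of 9 libraries was left out, with adjusted p from 0.0501 to 0.12. These were chow replicates 1, 2 and 3, HFHF control replicate 3 and gRNA replicates 2, 3, 4, 5 and 7. Oasl1, whose protein restrains Irf7 in mice, took another course: means were 9.72 ± 1.78 CPM in chow, 8.55 ± 0.914 in HFHF control and 6.00 ± 1.73 in gRNA. It was not called on the diet (-0.19 ± 0.17, adjusted p = 0.353), fell with the gRNA (-0.51 ± 0.15, adjusted p = 0.0101) and fell in gRNA against chow (-0.69 ± 0.17, adjusted p = 0.00183), although the groups overlapped in each contrast. Eif2ak2, the kinase PKR that halts translation, changed little in size but evenly: 20.7 ± 2.26 CPM in chow, 24.6 ± 0.772 in HFHF control and 21.8 ± 1.11 in gRNA. All HFHF control libraries exceeded all others, with log2 fold changes of 0.25 ± 0.06, adjusted p = 0.00207 on the diet and -0.17 ± 0.06, adjusted p = 0.0179 with the gRNA, and 0.08 ± 0.06, adjusted p = 0.333 between gRNA and chow.

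**Figure D4:**
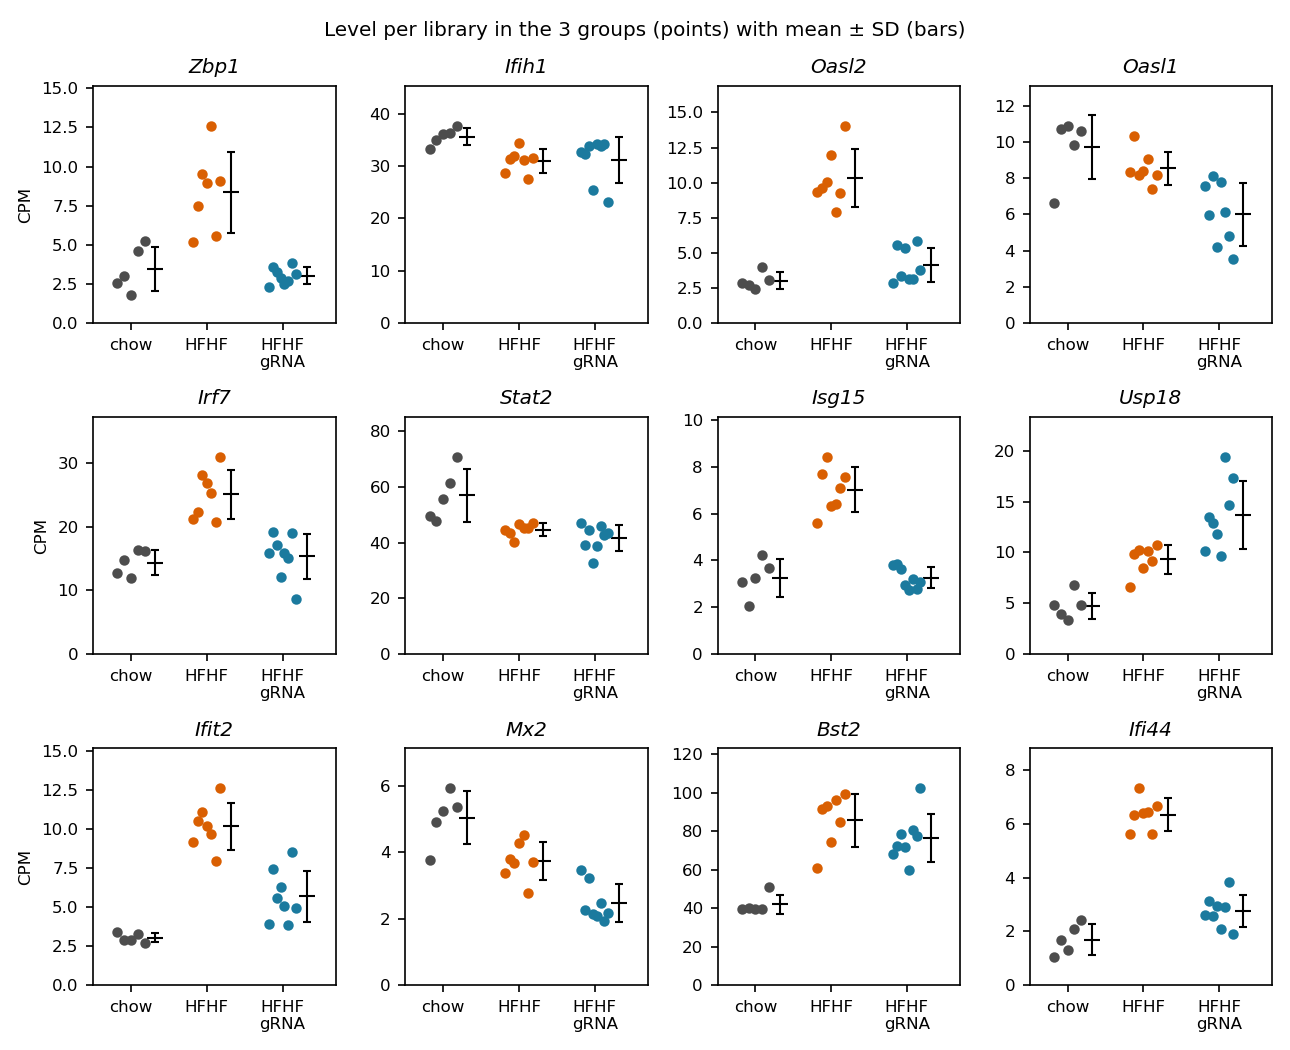
CPM per library (points) with the mean and SD (bars) for 12 members in chow (n = 5), HFHF control (n = 7) and gRNA (n = 8), each panel with its own axis from 0. Zbp1, Oasl2, Irf7, Isg15, Ifit2 and Ifi44 are highest in HFHF control, Usp18 is highest in gRNA (up to 19.4 CPM), and Stat2 and Mx2 are highest in chow.

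Of the 3 transcription factors, Irf7 rose on the diet and fell with the gRNA like most effectors, and Stat2 and Irf9 did neither. Irf7, which drives the interferon genes and is itself induced, stood at 12.7, 14.7, 12.0, 16.3 and 16.2 CPM in chow, 20.7 to 31.0 (median 25.4) in HFHF control and 8.63 to 19.1 (median 15.8) in gRNA. HFHF control was above both other groups in every library, and gRNA replicate 8 was the lowest of all 20. Irf7 rose on the diet (0.80 ± 0.15, adjusted p = 0.000153), fell with the gRNA (-0.71 ± 0.13, adjusted p = 0.000247) and was not called between gRNA and chow (0.10 ± 0.15, adjusted p = 0.634).

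Stat2 and Irf9 encode proteins of the complex that binds the response element. Stat2 stood at 49.4, 47.7, 55.5, 61.2 and 70.9 CPM in chow, 40.4 to 47.2 (median 45.1) in HFHF control and 32.7 to 46.9 (median 43.1) in gRNA. Both HFHF groups lay below every chow library and overlapped each other. Stat2 fell on the diet (-0.35 ± 0.09, adjusted p = 0.00211, a call lost without composition scaling, adjusted p = 0.54) and in gRNA against chow (-0.45 ± 0.09, adjusted p = 0.000325), and was not called with the gRNA (-0.09 ± 0.08, adjusted p = 0.379) except without composition scaling (-0.28, adjusted p = 0.0108). Irf9 stood at 22.8, 23.3, 25.8, 25.8 and 25.1 CPM in chow, 19.7 to 26.0 (median 22.8) in HFHF control and 15.1 to 26.6 (median 20.6) in gRNA, and all groups overlapped. No contrast called it (-0.07 ± 0.10, adjusted p = 0.56 on the diet, -0.17 ± 0.09, adjusted p = 0.136 with the gRNA, -0.25 ± 0.10, adjusted p = 0.0505 for gRNA against chow). Irf9 was called lower with the gRNA without gRNA replicate 3 (adjusted p = 0.0272) or without composition scaling (-0.36, adjusted p = 0.00291), and leaving out HFHF control replicate 1 (0.047), gRNA replicate 2 (0.0497) or gRNA replicate 3 (0.0178) brought one against chow.

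Isg15 and Usp18, a modifier and the protease that removes it, parted in the gRNA group. Isg15 encodes a ubiquitin-like protein that is joined to other proteins. Its levels were 3.09, 2.06, 3.25, 4.23 and 3.66 CPM in chow, 5.61 to 8.44 (median 7.09) in HFHF control and 2.72 to 3.85 (median 3.15) in gRNA. HFHF control lay above both other groups without overlap, and the gRNA range lay inside the chow range. The diet value was 1.11 ± 0.15, adjusted p = 1.79e-06, the gRNA value -1.11 ± 0.13, adjusted p = 7.49e-07, and gRNA against chow gave 0.01 ± 0.15, adjusted p = 0.983.

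Usp18 encodes the protease that takes ISG15 off its targets and that also restrains signalling at the interferon receptor. It stood at 4.85, 3.92, 3.33, 6.76 and 4.82 CPM in chow, 6.62 to 10.8 (median 9.82) in HFHF control and 9.69 to 19.4 (median 13.2) in gRNA. The order of the groups was chow, HFHF control, gRNA, with overlap between neighbours and none between gRNA and chow. Usp18 rose on the diet (0.98 ± 0.19, adjusted p = 0.000123), rose further with the gRNA (0.56 ± 0.15, adjusted p = 0.00516) and was higher in gRNA than in chow (1.53 ± 0.18, adjusted p = 1.15e-06). These calls held under every alternative tried, and without gRNA replicate 8 the gRNA value was 0.49 (adjusted p = 0.0133).

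All 4 IFIT genes, of a family in which some proteins bind foreign RNA and block its translation, rose on the diet and fell with the gRNA. Ifit2 was at 3.38, 2.92, 2.88, 3.27 and 2.72 CPM in chow, 7.95 to 12.7 (median 10.2) in HFHF control and 3.88 to 8.52 (median 5.32) in gRNA. Both HFHF groups were above every chow library, and gRNA replicate 7 reached into the HFHF control range. Ifit2 rose on the diet (1.74 ± 0.18, adjusted p = 4.23e-08), fell with the gRNA (-0.84 ± 0.14, adjusted p = 6.98e-05) and stayed above chow (0.91 ± 0.18, adjusted p = 0.000292).

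Ifit1 was at 5.88, 5.84, 6.96, 8.32 and 8.71 CPM in chow, 8.30 to 13.6 (median 9.55) in HFHF control and 4.37 to 8.62 (median 5.33) in gRNA. The highest gRNA library, replicate 2, exceeded the lowest HFHF control library, and chow overlapped both groups. Its values were 0.50 ± 0.16, adjusted p = 0.0106 on the diet and -0.82 ± 0.14, adjusted p = 8.51e-05 with the gRNA. Against chow the gRNA value was -0.31 ± 0.16, adjusted p = 0.12, and it was called without gRNA replicate 2 (-0.40, adjusted p = 0.0314). Ifit3 was at 10.0, 11.7, 9.31, 11.7 and 8.87 CPM in chow, 15.4 to 24.9 (median 18.1) in HFHF control and 8.62 to 17.6 (median 11.6) in gRNA. All HFHF control libraries exceeded chow, and gRNA overlapped both. Ifit3 gave 0.97 ± 0.17, adjusted p = 5e-05 on the diet, -0.70 ± 0.14, adjusted p = 0.000546 with the gRNA and 0.27 ± 0.17, adjusted p = 0.194 for gRNA against chow. Ifit3b, its duplicate, had means of 2.65 ± 0.667 CPM (SD, n = 5), 4.61 ± 0.868 (n = 7) and 2.98 ± 0.695 (n = 8), rose on the diet (0.80 ± 0.19) and fell with the gRNA (-0.62 ± 0.16). Both are uncertain as separate genes, since 50.8% of the 51-base stretches of Ifit3 and 44.6% of those of Ifit3b occur in another gene, chiefly in each other.

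The antiviral GTPases and enzymes fell with the gRNA, and tetherin did not pass the test there. Cmpk2, a mitochondrial nucleotide kinase, stood at 4.78, 4.38, 6.21, 5.50 and 6.22 CPM in chow, 6.28 to 10.2 (median 7.71) in HFHF control and 3.86 to 5.75 (median 4.67) in gRNA. HFHF control was above both other groups in every library. Cmpk2 rose on the diet (0.60 ± 0.12, adjusted p = 0.0003), fell with the gRNA (-0.77 ± 0.11, adjusted p = 8.16e-06) and was not called against chow (-0.17 ± 0.12, adjusted p = 0.272). Its neighbour Rsad2 encodes viperin, which makes a chain-ending nucleotide. Rsad2 stood at 10.1, 9.36, 10.1, 14.0 and 9.96 CPM in chow, 11.5 to 18.7 (median 13.5) in HFHF control and 6.46 to 10.7 (median 8.87) in gRNA. All gRNA libraries were below all HFHF control libraries, and chow replicate 4 was high for its group. The gRNA value was -0.66 ± 0.12, adjusted p = 0.000174 and that against chow -0.27 ± 0.14, adjusted p = 0.112. The diet value of 0.38 ± 0.14, adjusted p = 0.0216 lost its call without HFHF control replicate 3 (0.30, adjusted p = 0.0561).

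Mx1 and Mx2 encode related GTPases that trap viral components, and C57BL/6 mice, like many laboratory strains, are known to carry a defective Mx1. Whether either gene makes a working protein in these mice was not measured. Mx1 had few counts, at 0.882, 0.664, 0.757, 1.34 and 1.01 CPM in chow, 1.04 to 3.08 (median 1.84) in HFHF control and 0.443 to 1.10 (median 0.706) in gRNA, with 7 to 61 counts per library. HFHF control replicates 2 and 6 lay within the range of chow and the other 5 lay above it. The library gRNA replicate 2 exceeded HFHF control replicates 2 and 6, so the gRNA and HFHF control groups overlapped. Mx1 rose on the diet (1.13 ± 0.30, adjusted p = 0.00265), fell with the gRNA (-1.45 ± 0.26, adjusted p = 0.000119) and was not called against chow (-0.32 ± 0.32, adjusted p = 0.431).

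Mx2 stood at 3.75, 4.91, 5.22, 5.94 and 5.37 CPM in chow, 2.77 to 4.52 (median 3.71) in HFHF control and 1.91 to 3.45 (median 2.21) in gRNA. Every gRNA library was below every chow library, and HFHF control overlapped both. It fell with the gRNA (-0.60 ± 0.14, adjusted p = 0.00185) and in gRNA against chow (-1.03 ± 0.15, adjusted p = 1.56e-05). The fall on the diet (-0.43 ± 0.15, adjusted p = 0.0204) lost its call without chow replicate 3 (adjusted p = 0.0585), 4 (0.0907) or 5 (0.0608), with upper-quartile scaling (0.0636), without composition scaling (0.382) and without the filter (0.0517). Bst2 encodes tetherin, which holds budding virus at the cell surface. Its means were 41.9 ± 5.05 CPM (SD, n = 5) in chow, 85.7 ± 13.7 (n = 7) in HFHF control and 76.3 ± 12.5 (n = 8) in gRNA, and both HFHF groups were above chow in every library. Bst2 rose on the diet (1.03 ± 0.12, adjusted p = 4.68e-07) and in gRNA against chow (0.86 ± 0.12, adjusted p = 8.24e-06). With the gRNA it gave -0.17 ± 0.11, adjusted p = 0.225, and without gRNA replicate 8, its highest gRNA library at 103 CPM, it was called lower (-0.25, adjusted p = 0.0461), as it was without composition scaling (-0.35, adjusted p = 0.00595).

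All 8 members of the remaining group rose on the diet and fell with the gRNA. Ifi44, a protein that binds guanine nucleotides, stood at 1.03, 1.66, 1.29, 2.08 and 2.41 CPM in chow, 5.60 to 7.35 (median 6.40) in HFHF control and 1.90 to 3.83 (median 2.76) in gRNA. HFHF control exceeded both other groups in every library, and the lower gRNA libraries overlapped the upper chow libraries. Ifi44 rose on the diet (1.90 ± 0.18, adjusted p = 2.05e-08), fell with the gRNA (-1.20 ± 0.15, adjusted p = 1.52e-06) and was still higher than in chow (0.70 ± 0.19, adjusted p = 0.00419). Ifi27l2a, a small hydrophobic protein of the ISG12 family, stood at 0.809, 1.59, 1.21, 1.63 and 1.63 CPM in chow, 3.83 to 7.68 (median 4.60) in HFHF control and 1.65 to 3.39 (median 2.56) in gRNA. The 3 groups did not overlap, with gRNA between chow and HFHF control. Its values were 1.96 ± 0.24, adjusted p = 4.9e-07 on the diet, -1.14 ± 0.19, adjusted p = 5.01e-05 with the gRNA and 0.82 ± 0.24, adjusted p = 0.00979 for gRNA against chow.

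Xaf1, which binds the caspase inhibitor XIAP, stood at 2.94, 3.32, 2.65, 3.49 and 4.67 CPM in chow, 5.66 to 8.66 (median 7.68) in HFHF control and 3.73 to 6.32 (median 4.33) in gRNA. HFHF control was above chow throughout, and gRNA replicate 2 reached the lower HFHF control values. Xaf1 rose on the diet (1.13 ± 0.15, adjusted p = 1.71e-06) and fell with the gRNA (-0.73 ± 0.13, adjusted p = 8.73e-05). Its rise in gRNA against chow (0.40 ± 0.15, adjusted p = 0.037) lost the call without chow replicate 1, 2 or 3 or gRNA replicate 2 or 7, with adjusted p from 0.0543 to 0.0897.

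The other 5 had smaller or more variable changes. Trim30a, which dampens Toll-like receptor signalling, had means of 5.61 ± 1.36 CPM (SD, n = 5), 13.6 ± 1.83 (n = 7) and 8.71 ± 2.41 (n = 8) in chow, HFHF control and gRNA, rose on the diet (1.28 ± 0.18), fell with the gRNA (-0.65 ± 0.14) and was higher in gRNA than chow (0.64 ± 0.17, adjusted p = 0.00544). Rtp4, a chaperone of receptors, had 8.96 ± 0.963, 13.2 ± 1.24 and 9.23 ± 2.47 CPM and gave 0.56 ± 0.14 on the diet and -0.51 ± 0.12 with the gRNA. Ifi35, a partner of NMI, had 12.8 ± 1.00, 15.3 ± 1.54 and 12.6 ± 1.15 CPM and gave 0.26 ± 0.08 and -0.28 ± 0.07. Parp14 attaches ADP-ribose to proteins. At 31.4 ± 3.46, 36.6 ± 3.39 and 30.6 ± 2.49 CPM, it gave 0.22 ± 0.08 and -0.26 ± 0.07. Ifi27 belongs to the ISG12 family with Ifi27l2a, stood at 44.2 ± 10.3, 67.2 ± 14.0 and 49.9 ± 9.88 CPM, and gave 0.61 ± 0.17 on the diet. Its fall with the gRNA (-0.43 ± 0.15, adjusted p = 0.0269) lost the call without HFHF control replicate 2 (adjusted p = 0.0656), 6 (0.0635) or 7 (0.0518) or without gRNA replicate 4 (0.0521). Rtp4, Ifi35, Parp14 and Ifi27 were not called between gRNA and chow. Rtp4 and Ifi35 share 11.6% and 10.3% of their 51-base stretches with the gene models Gm45338 and Gm11626, so part of their counts is uncertain, and Trim30a and Ifit1 share 5.9% and 7.0% with Trim30d and with Ifit1bl2 and Ifit1bl1. Of the 32 members, 11 share no such stretch with another gene.

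Per kilobase of exon, Bst2 and Ifi27 were the most abundant members in all 3 groups. In chow they reached means of 46.4 and 30.1 CPM per kb, followed by Stat2 at 9.61 and Ifi35 at 7.39. The scarcest were Oas3 at 0.102, Mx1 at 0.246 and Ifi44 at 0.276 CPM per kb. On the HFHF diet with vehicle the order changed below the leading pair: Ifi27l2a and Ifit3 came next, at 11.6 and 11.6 CPM per kb, then Isg15 at 9.28 and Ifi35 at 8.84, with Stat2 at 7.53. In the gRNA group Bst2 at 84.5 and Ifi27 at 34.0 were followed by Ifi35 at 7.27, Ifit3 at 7.13 and Stat2 at 7.05, whose ranges over libraries overlap, and Usp18 stood at 4.90.

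Members differed in how steady they were between libraries of a group. Their biological coefficient of variation, the spread beyond counting noise, had a median of 0.167 beside 0.131 over all genes tested, given without a test. The genes compared were not matched for level. Eif2ak2 at 0.0713 and Ifi35 at 0.0899 were the steadiest, and Oas1a at 0.309, Mx1 at 0.293 and Oas3 at 0.277, all of few counts, the most variable. Across members, the median ratio of a library to the chow mean was 0.884 to 1.16 in the chow libraries, 1.35 to 2.12 in HFHF control and 0.894 to 1.24 in gRNA. HFHF control replicate 7 had the highest of these ratios and HFHF control replicate 1 the lowest of its group, being lowest for 13 of 32 members there. In chow, replicate 4 was highest for 14 members, and in gRNA, replicate 2 was highest for 10 and replicate 8 lowest for 12, although replicate 8 had the highest Bst2 of all libraries. Without replicate 8, 27 members fell and 1 rose in gRNA against HFHF control.

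Several members lie side by side in GRCm38, and neighbours did not always move alike. Oasl2 (chr5:114896936-114912234, plus strand) and Oasl1 (chr5:114923240-114937915, plus strand) are 11.0 kb apart, yet Oasl2 rose on the diet and Oasl1 was not called. Mx1 (chr16:97447035-97462907, minus strand) and Mx2 (chr16:97535308-97560900, plus strand) are 72.4 kb apart and were called in opposite directions on the diet, a difference between genes that was not itself tested. Oas2 (chr5:120730333-120749853) and Oas3 (chr5:120753098-120777661), both on the minus strand and 3.2 kb apart, had diet values of 1.55 and 1.77 and gRNA values of -1.17 and -0.97. The 4 IFIT genes lie together on chromosome 19 from Ifit2 (chr19:34550694-34576419) to Ifit1 (chr19:34640871-34650009), all on the plus strand. Rsad2 (chr12:26442746-26456452, minus strand) and Cmpk2 (chr12:26469204-26479837, plus strand) are 12.8 kb apart, and Ifi27 and Ifi27l2a are 1.9 kb apart on chromosome 12.

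The interferons themselves were at or near the limit of detection. Of 21 ligand genes looked up, 17 had 0 counts in all 20 libraries, Ifnb1 and all but 1 of the listed Ifna genes among them, and none passed the filter. Ifna5 and Ifnk had 1 count and Ifnz 2 counts over all libraries, and Ifng, the type II interferon, had 18 with at most 3 in a library. At this depth a change of these transcripts was not detectable, which is not the same as their absence.

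The receptor subunits for type I interferon were not called with the gRNA: Ifnar1 gave 0.06 ± 0.05 and Ifnar2 -0.05 ± 0.06, after falls on the diet of -0.14 ± 0.06 (adjusted p = 0.049) and -0.17 ± 0.07 (adjusted p = 0.0402). Both falls lie close to the threshold. Leaving out composition scaling moved the diet median of all genes from -0.01 to 0.27, so these small values depend on the scaling. Of the 5 receptor genes tested 2 fell and 0 rose with the gRNA, beside 19.0% and 19.6% of all genes. On the diet 3 rose and 2 fell, beside 28.1% and 28.9% of all genes. Ifngr1, a chain of the interferon-gamma receptor, gave -0.63 ± 0.09 with the gRNA (adjusted p = 1.75e-05) and 0.82 ± 0.11 on the diet, and Il10rb, shared by the interleukin 10 and lambda interferon receptors, -0.43 ± 0.10 (adjusted p = 0.00148) and 1.38 ± 0.12.

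A list of 9 genes outside the set held 3 kinases of interferon receptors, Stat3 and 5 IRF genes. Of these 2 fell and 1 rose with the gRNA, beside 19.0% and 19.6% of all genes. On the diet 1 rose and 3 fell, beside 28.1% and 28.9% of all genes. The falls in both contrasts lie near the shares of all genes. Irf8, a factor of myeloid cells, fell with the gRNA (-0.90 ± 0.16, adjusted p = 0.000106) after a rise on the diet (1.44 ± 0.19). Irf5, which acts below Toll-like receptors, fell with the gRNA (-0.42 ± 0.16, adjusted p = 0.0422) and on the diet (-0.64 ± 0.17, adjusted p = 0.00333). Irf2, which can oppose other IRFs, rose with the gRNA (0.28 ± 0.10, adjusted p = 0.0337) and gave 0.03 ± 0.12 on the diet.

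Of 18 receptors, adaptors and kinases upstream of interferon, 8 fell and 2 rose with the gRNA, beside 19.0% and 19.6% of all genes. On the diet 14 rose and 3 fell, beside 28.1% and 28.9% of all genes. Mavs, the mitochondrial adaptor of RIG-I and MDA5, had means of 64.9, 51.5 and 72.1 CPM in chow, HFHF control and gRNA. It rose with the gRNA (0.49 ± 0.07, adjusted p = 6.57e-06), without overlap between the groups, and fell on the diet (-0.33 ± 0.07, adjusted p = 0.000648). Tmem173, which encodes the DNA-signalling adaptor STING, fell with the gRNA (-1.05 ± 0.17, adjusted p = 4.52e-05) and rose on the diet (1.53 ± 0.21). Ifi204, a DNA-binding protein, fell (-0.90 ± 0.15, adjusted p = 7.35e-05) and rose (1.42 ± 0.18) in the same contrasts.

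Of 15 inhibitors and enzymes that remove nucleic acid, 4 fell and 1 rose with the gRNA, beside 19.0% and 19.6% of all genes. On the diet 7 rose and 1 fell, beside 28.1% and 28.9% of all genes. Tnfaip3, the inhibitor A20, fell with the gRNA (-1.06 ± 0.13, adjusted p = 1.59e-06) and rose on the diet (1.87 ± 0.16). The DNA exonuclease Trex1 fell (-0.78 ± 0.15, adjusted p = 0.000337) and rose (1.08 ± 0.18), as did Samhd1, which degrades deoxynucleotides (-0.48 ± 0.09, adjusted p = 0.000346, and 0.57 ± 0.11). Of the 3 genes that join ISG15 to proteins, 2 fell with the gRNA and 2 rose on the diet: the activating enzyme Uba7 gave -0.58 ± 0.11 (adjusted p = 0.00021) and 0.72 ± 0.13, the conjugating enzyme Ube2l6 -0.22 ± 0.07 (adjusted p = 0.0232) and 0.31 ± 0.08, and the ligase Herc6 -0.26 ± 0.10 (adjusted p = 0.0534) and 0.21 ± 0.12.

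Other interferon-stimulated genes outside the set were lower with the gRNA or not called. Of 51 tested, 25 fell and 0 rose with the gRNA, 28 rose and 3 fell on the diet, and 20 rose and 3 fell in gRNA against chow, with medians of -0.55, 0.92 and 0.40. The shares of all genes tested were 19.0% lower and 19.6% higher with the gRNA and 28.1% higher and 28.9% lower on the diet. For gRNA against chow they were 20.9% higher and 21.7% lower. Ly6e, a surface protein that limits virus entry, had means of 126, 292 and 153 CPM in chow, HFHF control and gRNA and gave -0.93 ± 0.10 with the gRNA (adjusted p = 2.76e-07). Ifi27l2b, the neighbour of Ifi27l2a, had 1.45, 36.7 and 12.2 CPM and gave -1.58 ± 0.20 (adjusted p = 4.53e-06). Slfn1 and Slfn5, of the schlafen family, gave -1.69 ± 0.23 and -0.66 ± 0.09 (adjusted p = 7.23e-06 and 8.45e-06).

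Genes known for their response to interferon-gamma were examined beside them. Of 25 tested, 16 fell and 0 rose with the gRNA, 21 rose and 0 fell on the diet, and 6 rose and 0 fell in gRNA against chow, with medians of -0.61, 0.82 and 0.25. Among all genes tested 19.0% fell and 19.6% rose with the gRNA, and 28.1% rose and 28.9% fell on the diet. In gRNA against chow 20.9% of all genes rose and 21.7% fell. Ubd, the ubiquitin-like modifier FAT10, stood at means of 0.589, 20.4 and 5.07 CPM in chow, HFHF control and gRNA and gave -2.01 ± 0.15 with the gRNA (adjusted p = 5.49e-09) and 5.10 ± 0.25 on the diet. Ciita, the master factor of MHC class II, gave -1.44 ± 0.17 (adjusted p = 9.93e-07) and 2.23 ± 0.22. Tapbp, which loads peptides on MHC class I, gave -0.41 ± 0.06 (adjusted p = 9.34e-06) and 0.36 ± 0.07, and the immune checkpoint ligand Cd274 -0.92 ± 0.15 (adjusted p = 6.31e-05) and 1.33 ± 0.19. Several of these genes also respond to type I interferon, so the lists do not separate the types of interferon.

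Markers of immune cells moved in the same contrasts, where 28.1% of all genes rose and 28.9% fell on the diet. With the gRNA 19.0% of all genes fell and 19.6% rose. Of 14 markers of monocytes and monocyte-derived macrophages, 14 rose on the diet, and with the gRNA 10 fell and 0 rose. Their summed level ran from 63.3 to 102 CPM in chow, 290.0 to 652 in HFHF control and 178 to 382 in gRNA, without overlap between chow and either HFHF group. Spp1 enters this level and is also on the list of cholangiocyte markers, so those lists share a gene. Cx3cr1 and Ccr2, receptors of monocytes, fell with the gRNA (-2.25 ± 0.26 and -1.91 ± 0.23, adjusted p = 8.03e-07 and 1.69e-06), while Gpnmb and Cd68 were not called there. Of 12 Kupffer cell markers 5 rose and 3 fell on the diet, and 4 rose and 5 fell with the gRNA, with summed levels of 160.0 to 310.0, 311 to 580.0 and 235 to 512 CPM. Timd4, Marco, Cd163 and Clec4f rose with the gRNA, and the complement genes C1qa, C1qb and C1qc with Csf1r and Adgre1 fell. Vsig4, Cd5l and Folr2 were not called there.

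Plasmacytoid dendritic cells, a main source of type I interferon, are shown by few reads here: 4 of 10 markers passed the filter, and Siglech, which defines them best, had 0.175, 0.538 and 0.246 CPM in chow, HFHF control and gRNA. Their summed level of 23.7 to 31.7, 98.5 to 219 and 42.3 to 111 CPM was mostly Tcf4 and Ly6d, genes that other cells also express. The 4 markers tested rose on the diet, and with the gRNA 3 fell and 0 rose. Of 11 T and NK cell markers tested 10 rose and 1 fell on the diet, and 1 rose and 7 fell with the gRNA (summed 4.71 to 6.32, 11.8 to 28.5 and 7.33 to 16.4 CPM). Classical dendritic cell markers (5 tested) gave 4 rises on the diet and 3 falls with the gRNA (summed 7.13 to 8.50, 10.0 to 14.3 and 6.05 to 10.1 CPM), and neutrophil markers (4 tested) 3 and 3 (summed 4.27 to 6.61, 10.4 to 15.0 and 6.51 to 11.5 CPM). All 8 B cell markers rose with the gRNA, and on the diet 0 rose and 1 fell (summed 17.4 to 32.8, 13.7 to 42.8 and 40.5 to 156 CPM). Of 12 stellate cell markers 11 rose on the diet and 9 fell with the gRNA (summed 256 to 326, 740.0 to 1050.0 and 331 to 479 CPM). Of 8 cholangiocyte markers 5 were tested, of which 3 rose and 1 fell on the diet, and 0 rose and 4 fell with the gRNA. Of 12 sinusoidal endothelial markers 3 rose and 0 fell with the gRNA, and 1 rose and 5 fell on the diet. Of 12 hepatocyte markers 5 rose and 1 fell with the gRNA, after 9 falls on the diet. Over all genes 19.6% rose and 19.0% fell with the gRNA, and 28.1% rose and 28.9% fell on the diet. The 3 endothelial rises with the gRNA lie near the share of all genes. The part of any of these cell types in the levels of the interferon-stimulated genes was not tested.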

How the data were processed

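Bulk RNA of liver was sequenced in 20 libraries (5 chow control, 7 HFHF control, 8 HFHF Flcn gRNA), grouped by the labels' diet and treatment. The authors deposited a table of estimated counts per gene, not normalized, of which 77.8% of values of at least 1 are whole numbers, and these were rounded before testing. The build is GRCm38, per the submitters' processing notes, while aligner, counter, annotation, strand setting and any molecular identifiers were not given in the sources used here. The table holds 32422 features, of which 22 are constructs with 7.0031 counts in all and stayed out of library sizes and tests. Of 32400 Ensembl genes 32325 matched a GENCODE M21 name, and 1 column that matched no sample's labels was not used. Genes were filtered with filterByExpr, libraries were scaled by TMM, and edgeR 4.0.16 in R 4.3.3 fitted all 3 groups in 1 robust quasi-likelihood model with 17 residual degrees of freedom, without a block. P-values were adjusted by the Benjamini-Hochberg method over the 13667 genes tested in each contrast, and the SE is the log2 fold change divided by the root of the F statistic. The test was also run on simulated data. Alternatives were RLE, upper-quartile and no composition scaling, no filter, DESeq2 1.42.0, a fit of only the groups compared, and leaving out each library. In each of 7 roles the 3 members with the smallest p in gRNA against HFHF control are described from each chow library and the range and median of the larger groups, as is Mx2, the others from group means, and from the pathway lists the 3 genes with the smallest p, or 4 of the longer lists, are named, beside Ifnar1 and Ifnar2, which were added as the receptor of type I interferon, and the cell type markers named, which were chosen after their values were seen. Per-length levels divide the CPM by the merged length of all exons of a gene in GENCODE M21, which can exceed that of the transcripts expressed. The order of genes by these levels depends on that length. Shared sequence is the share of a gene's 51-base stretches found in transcripts of other genes on either strand. 1 gene of a pathway list is not reported here. The members and lists were chosen with earlier results of these data known. Totals of 13974379 to 19586576 counts per library limit the precision of members with few counts, Oas3 and Mx1 above all.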

Additional observations from a re-analysis of the deposited data

Results flagged for a closer look

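In 6 of 96 groups of libraries, 3 groups for each of the 32 members, 1 library lay apart from the others of its group by more than Dixon's 95% limit, where chance gives about 1 in 20 groups, or 4.8 of 96. For Oasl1 chow replicate 1 was low at 6.62 CPM, with the other chow libraries at 9.8 to 10.9. For Rsad2 chow replicate 4 was high at 14.0 CPM, the others lying at 9.36 to 10.1. Xaf1 in gRNA replicate 2 was high at 6.32 CPM beside 3.73 to 4.75 in the other gRNA libraries. Bst2 in chow replicate 5 was high at 51.0 CPM beside 39.4 to 39.9 in the other chow libraries. Eif2ak2 had such a library in each of 2 groups: chow replicate 1 was low at 16.8 CPM, with the others at 20.9 to 22.4, and HFHF control replicate 4 was high at 26.3 CPM, with the others at 23.9 to 24.6.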

How the results depend on the processing

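Under the 6 alternatives to scaling, filter, test and groups fitted, 68 of 72 values of the member counts and medians stayed within 1.5 times the reported count or within the spread. The number of members that fell on the diet, 2 as reported, was 1 with upper-quartile scaling, 0 without composition scaling and 1 without the filter, and the members' median on the diet was 1.07 without composition scaling, which moved the median of all genes as well. With 1 library left out at a time, the members called lower and higher with the gRNA numbered 25 to 27 and 1 to 1 with a median of -0.72 to -0.62, those called higher and lower on the diet 24 to 26 and 1 to 3 (1 lower without chow replicate 3, 4 or 5) with a median of 0.74 to 0.89, and those called higher and lower in gRNA against chow 6 to 10 and 3 to 5 (5 lower without gRNA replicate 2) with a median of 0.03 to 0.14. Signs turned only for values that were not called as reported. Under upper-quartile scaling and without composition scaling these were Ifih1 with the gRNA (-0.0423 and -0.167), Irf9 on the diet (0.0184 and 0.202), and, in gRNA against chow, Ifi35 (0.0134 and 0.0698, and 0.0096 without the filter) and Parp14 (0.0001 and 0.0576). Without composition scaling Ifih1 (0.0741) and Oasl1 (0.0875) turned on the diet. With 1 library left out the ranges that cross 0 were -0.0138 to 0.0573 for Ifih1 with the gRNA, -0.0228 to 0.0662 for Ddx58 on the diet and, in gRNA against chow, -0.0322 to 0.103 for Dhx58, -0.0311 to 0.0484 for Ifi35, -0.101 to 0.141 for Isg15, -0.0572 to 0.0251 for Parp14, -0.0446 to 0.13 for Rtp4 and -0.308 to 0.0423 for Zbp1. The cause of these changes was not tested. No paired analysis was possible because the labels give no replicate numbers.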
